A study of Mus musculus with 11 samples.

Results

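The genes described here are 9 genes of the lipid output of the mouse sebaceous gland: Mc5r, Scd3, Elovl3, Acsbg1, Fabp5, Far2, Awat2, Dgat2 and Soat1. They were chosen by name, and each gene was represented by every probe set annotated to it alone, with the brightest probe set over all arrays taken as the main one. Of the 9 genes, 7 had such a probe set, 11 probe sets in all, out of 18194 genes with one, and these 7 also passed the filter on low values that left 13710 genes. Awat2, a wax ester synthase, and Soat1, an enzyme that esterifies cholesterol, were not analysed here. The arrays came from skin of mice given 1 mg/kg ABBV-075 and sampled at 6 h (n = 4) or 24 h (n = 4), and of mice given vehicle (n = 3). ABBV-075 (mivebresib) inhibits the BET bromodomain proteins, which bind acetylated histones at active genes. The labels give neither strain, sex, age nor the hour at which vehicle skin was taken, and do not say whether 6 h and 24 h skin came from different mice, so that p-values measure the spread between these samples.

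Sebaceous glands open into the hair follicle and fill with lipid until the whole cell breaks down and is shed as sebum. Mouse sebum is rich in wax esters, sterol esters and diesters, made from long fatty acids that are synthesized, desaturated, elongated, activated to acyl-CoA and in part reduced to fatty alcohols before they are esterified. In mice, loss of the melanocortin receptor Mc5r lowers sebum output, and Scd3 and Elovl3 transcripts are known from sebocytes.

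The RefSeq promoter table for GRCm38.p6 held the regions before the start of 3 of the 7 measured genes, and all 3 are shown for that reason alone. The desaturase gene Scd3 starts on chromosome 19 (window chr19:44203038-44203287, plus strand), the acyl-CoA synthetase gene Acsbg1 on chromosome 9 (window chr9:54661886-54662135, minus strand) and the fatty acyl-CoA reductase gene Far2 on chromosome 6 (window chr6:148047166-148047415, plus strand). Each window is the 250 bases before the start, written 5′ to 3′ on the gene's strand, with motif matches on either strand in capitals.
Scd3: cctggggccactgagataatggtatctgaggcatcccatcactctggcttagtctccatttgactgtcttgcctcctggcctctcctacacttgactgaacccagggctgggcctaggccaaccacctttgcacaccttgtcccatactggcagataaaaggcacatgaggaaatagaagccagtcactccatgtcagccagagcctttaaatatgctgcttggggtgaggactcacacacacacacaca
Acsbg1: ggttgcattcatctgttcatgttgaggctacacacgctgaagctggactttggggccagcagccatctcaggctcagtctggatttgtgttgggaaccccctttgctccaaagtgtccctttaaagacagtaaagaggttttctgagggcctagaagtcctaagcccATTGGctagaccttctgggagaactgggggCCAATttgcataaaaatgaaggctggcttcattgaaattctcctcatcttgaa
Far2: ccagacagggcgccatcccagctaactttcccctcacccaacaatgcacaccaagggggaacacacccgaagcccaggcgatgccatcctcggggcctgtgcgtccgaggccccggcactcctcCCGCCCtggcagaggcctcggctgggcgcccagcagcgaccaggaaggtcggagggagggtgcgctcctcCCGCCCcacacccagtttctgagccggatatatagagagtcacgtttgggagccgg
The motifs searched were the nuclear receptor half-site AGGTCA, the sterol response element TCACNCCAC, the CCAAT box CCAAT, the TATA box TATAAA and the GC box GGGCGG, none of which contains another. The capitals in the Acsbg1 window mark 2 CCAAT boxes, of which the one beginning 83 bases before the start is on the opposite strand and the one beginning 53 bases before it is on the gene's own strand. The capitals in the Far2 window mark 2 GC boxes on the opposite strand, beginning 126 and 56 bases before the start. The Scd3 window held none of these letters. Over all 32851 windows of this length in the table, 33.85% held a CCAAT box, 32.74% a GC box, 14.02% the half-site, 12.37% the TATA box and 1.05% the sterol response element. A match is a description of letters and not a measured binding site.

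Levels are log2(intensity + 16) after quantile normalization, with 4.00 as the floor, and differences are on that scale, where changes of dim genes come out too small. Tests are limma fits over all 13710 genes with Benjamini-Hochberg adjustment, and a gene counts as called at an adjusted p under 0.05. Deposited array brightness (2% trimmed mean) ran from 82.8 to 244, and before normalization the median over all genes of the difference from vehicle was -0.68 (6 h) and -0.62 (24 h). Normalization brought these medians to 0.0037 and -0.020. Some arrays stood apart. The 5' to 3' intensity ratio of beta-actin, which is low where RNA is short, was 0.0725 in 6 h replicate 5, 0.284 in 6 h replicate 3 and 0.198 in 24 h replicate 2, and between 0.377 and 0.593 on the other 8 arrays. The same ratio of Gapdh was low in 6 h replicate 5 alone, at 0.104. It was 0.711 in 6 h replicate 3 and 0.804 in 24 h replicate 2, within the 0.684 to 1.08 of the other 8 arrays. The 2 controls thus differ on those 2 arrays. In 24 h replicate 4 the summed intensity of 8 basal keratinocyte markers was 36603 and that of 8 fibroblast markers 24497, where the other 24 h arrays had 10094 to 13885 and 52319 to 60357.

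Sebocyte markers as a set were measurable in every group of this whole-skin series. Of 10 defining sebocyte markers, 8 had a probe set and all 8 passed the filter, none at 0 throughout. The filter asks for a level above the 40th percentile on any 3 arrays, not in each group. Mc5r stood at percentiles 37.4 and 38.8 in vehicle replicates 3 and 4, so its passing does not show it measurable in vehicle skin. Their summed intensity ran from 11662 to 18419 at 6 h and from 10883 to 12323 at 24 h, against 11660 to 12571 in vehicle skin. Much of this sum came from the glutathione transferase gene Mgst1, at 13.03, 12.89 and 12.83 in vehicle replicates 1, 3 and 4. In 6 h replicate 1 the keratin gene Krt79, at 12.56, added to it, so the sum says little about the dimmer markers. Of the 9 genes, 4 are among these 8 markers.

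Of the 7 measured genes, 0 were called at 6 h and 0 at 24 h, and the background was 0% of all genes tested in either comparison. At an unadjusted p under 0.05, Dgat2 alone of the 7 was below that level at each time. Of all genes tested, 16.1% were below it at 6 h and 7.63% at 24 h, and 8.05% and 4.47% with a difference below 0, as Dgat2 had. The median difference from vehicle over the 7 genes was 0.32 at 6 h and 0.05 at 24 h, with 5 and 4 genes above 0 and 2 and 3 below it. Of all genes, 50.4% lay above 0 and 49.6% below at 6 h, and 47.6% above and 52.4% below at 24 h. Both comparisons use the same vehicle arrays. The gene furthest below vehicle in each comparison was Dgat2, and the gene furthest above it at 24 h was Acsbg1. The values of every array are plotted by group.

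**Figure D1:**
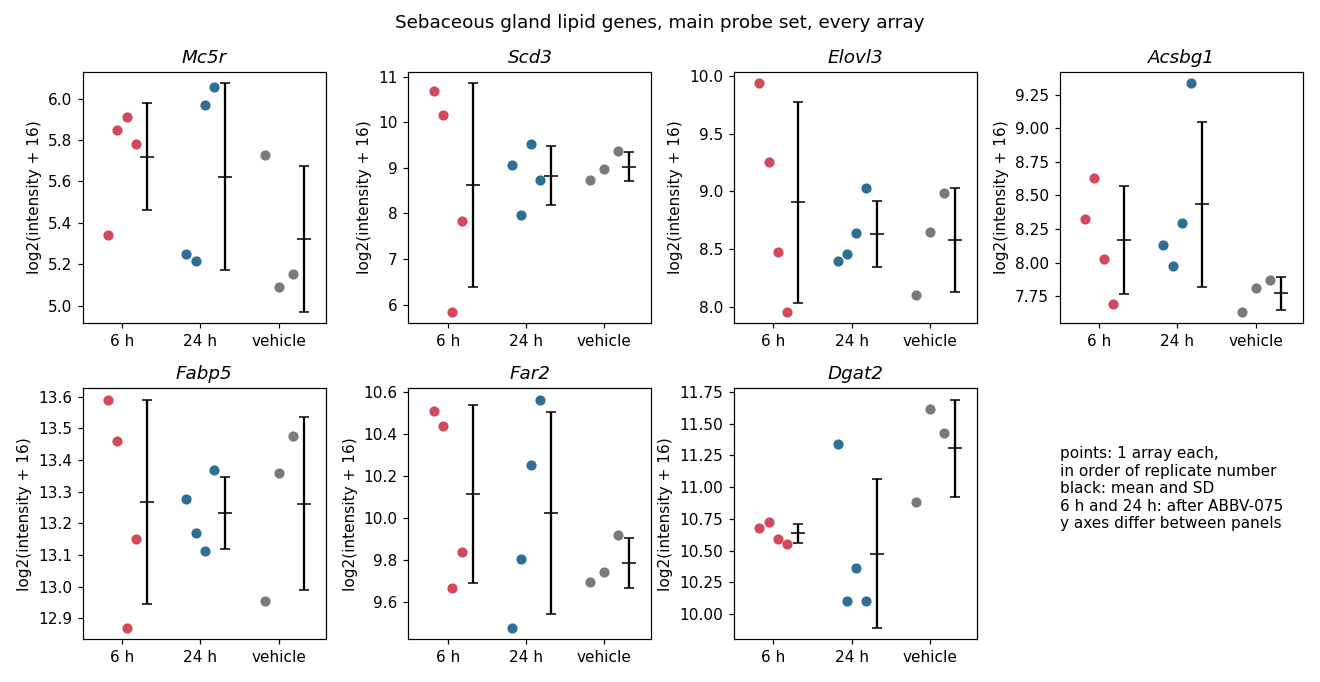
Log2(intensity + 16) of the main probe set of 7 sebaceous lipid genes (y axis) in 6 h, 24 h and vehicle skin (x axis). Each point is 1 array, black marks are mean and SD (n = 4, 4 and 3), and y axes differ between panels. The 6 h points of Dgat2 lie between 10.55 and 10.72, below all vehicle points, while the 6 h points of Scd3 run from 5.84 to 10.68.

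The receptor Mc5r, which binds melanocortin peptides and couples them to sebum output, was dim. Its level was 5.34, 5.85, 5.91 and 5.78 in 6 h replicates 1, 2, 3 and 5, 5.25, 5.21, 5.97 and 6.06 in 24 h replicates 1 to 4, and 5.73, 5.09 and 5.15 in vehicle replicates 1, 3 and 4. All groups overlapped, and its highest deposited intensity over the 11 arrays was 47.6. Mc5r averaged 5.72 ± 0.26 (SD, n = 4) at 6 h and 5.62 ± 0.45 (n = 4) at 24 h, against 5.32 ± 0.35 (n = 3) in vehicle. The differences of 0.40 ± 0.27 (SE) and 0.30 ± 0.27 were not called (limma adjusted p = 0.49 and 0.78), and the 24 h difference was 0.15 without 24 h replicate 4 and 0.50 without vehicle replicate 1.

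Scd3, a stearoyl-CoA desaturase that puts the double bond into saturated fatty acids, had the widest spread of the 7 genes at 6 h. Its level was 10.68, 10.15, 5.84 and 7.83 in 6 h replicates 1, 2, 3 and 5, and 9.06, 7.98, 9.52 and 8.74 in 24 h replicates 1 to 4, against 8.73, 8.98 and 9.37 in vehicle replicates 1, 3 and 4. Thus 2 of the 6 h arrays lay above every vehicle array and the other 2 below every vehicle array, a span of 4.83 within the group where vehicle arrays spanned 0.63. The second Scd3 probe set had the same split, with 9.54, 9.59, 6.27 and 7.51 at 6 h against 7.99, 8.18 and 8.20 in vehicle. As deposited, the main probe set read 2313, 793, 20.8 and 128 in 6 h replicates 1, 2, 3 and 5, against 579, 742 and 809 in vehicle.

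Scd3 averaged 8.62 ± 2.23 at 6 h and 8.82 ± 0.65 at 24 h, against 9.03 ± 0.32 in vehicle, and the differences of -0.40 ± 0.93 and -0.21 ± 0.93 were not called (limma adjusted p = 0.86 and 0.96). The 95% interval of the 6 h difference ran from -2.44 to 1.64. On both probe sets the 3 lowest Scd3 arrays were the 3 arrays with an actin ratio under 0.3, as the plot against that ratio shows, and the cause was not tested. Of these 3 arrays, only 6 h replicate 5 also had a low Gapdh ratio. Without those 3 arrays the 6 h difference was 1.39 (limma adjusted p = 0.21) and the 24 h difference 0.08. Only 6 h replicates 1 and 2 were then left at 6 h. Because the arrays left out were the lowest in Scd3, both differences had to rise, so these values are no check on them. Leaving out 6 h replicate 1 gave -1.09 at 6 h, and leaving out 6 h replicate 3 gave 0.53. Of its paralogues, Scd1, the main skin desaturase, differed by -0.08 ± 0.20 at 6 h and -0.15 ± 0.20 at 24 h, uncalled and overlapping vehicle (limma adjusted p = 0.87 and 0.86). Scd2 differed by -0.63 ± 0.35 at 6 h, wholly below vehicle as were 8.77% of all genes, and by -0.55 ± 0.35 at 24 h with overlap, also uncalled (limma adjusted p = 0.40 and 0.70). Whether probe sets of one paralogue also read another was not tested, and Scd4 was not analysed here.

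**Figure D2:**
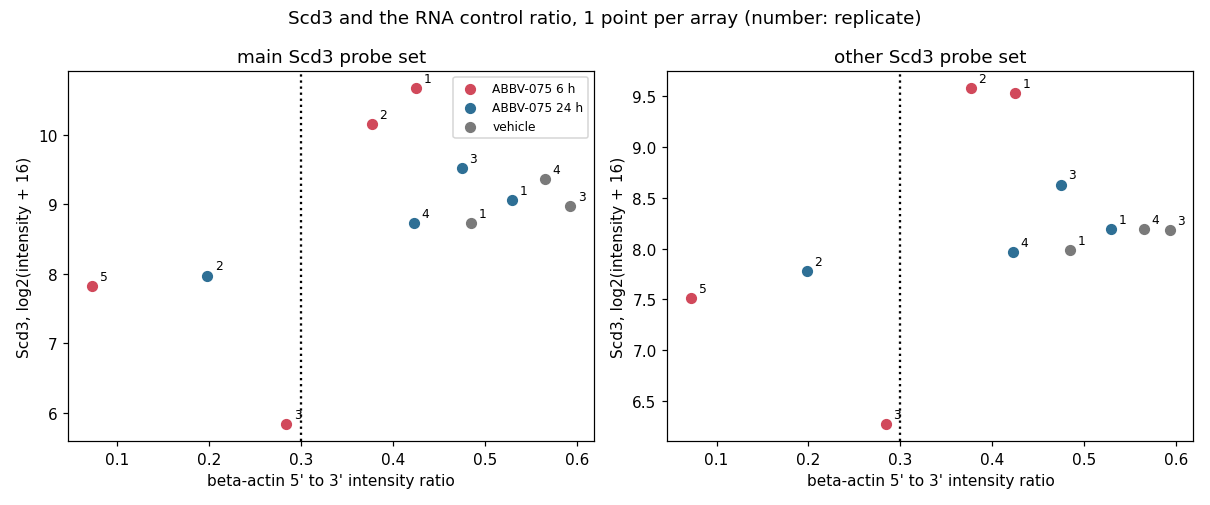
Log2(intensity + 16) of the main (left) and other (right) Scd3 probe set (y axis) against the beta-actin 5' to 3' intensity ratio (x axis), 1 point per array, numbered by replicate and coloured by group. The dotted line is at a ratio of 0.3, and the 3 arrays left of it hold the 3 lowest Scd3 levels in both panels.

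Elovl3, an elongase that adds carbons to saturated and monounsaturated acyl chains, also spread most widely at 6 h. Its level was 9.93, 9.25, 8.47 and 7.96 in 6 h replicates 1, 2, 3 and 5, and 8.39, 8.46, 8.64 and 9.03 in 24 h replicates 1 to 4, against 8.11, 8.65 and 8.99 in vehicle replicates 1, 3 and 4. The 2 highest arrays of all 11 were 6 h replicates 1 and 2, and the lowest was 6 h replicate 5. Elovl3 averaged 8.90 ± 0.87 at 6 h and 8.63 ± 0.29 at 24 h, against 8.58 ± 0.45 in vehicle, with differences of 0.32 ± 0.41 and 0.05 ± 0.41 (limma adjusted p = 0.72 and 0.98). The 6 h difference was -0.02 without 6 h replicate 1 and -0.52 in the values as deposited. Without the arrays of low actin ratio it was 1.01, with only 6 h replicates 1 and 2, the 2 highest arrays, left at 6 h.

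Acsbg1, which joins long and very long fatty acids to coenzyme A, was the one gene of the 7 with every 24 h array above every vehicle array. Its level was 8.33, 8.63, 8.03 and 7.69 in 6 h replicates 1, 2, 3 and 5, and 8.13, 7.97, 8.30 and 9.33 in 24 h replicates 1 to 4, against 7.64, 7.81 and 7.87 in vehicle replicates 1, 3 and 4. At 6 h, 3 of 4 arrays lay above all vehicle arrays. Of all genes tested, 5.09% lay wholly above vehicle at 24 h, so 1 of 7 genes is read against that share. Acsbg1 averaged 8.17 ± 0.40 at 6 h and 8.43 ± 0.61 at 24 h, against 7.77 ± 0.12 in vehicle. The difference of 0.66 ± 0.32 at 24 h was not called (limma adjusted p = 0.65), was 0.36 without 24 h replicate 4 and was -0.08 before normalization. At 6 h the difference was 0.39 ± 0.32 (adjusted p = 0.57) and -0.43 as deposited. It was 0.62 with limma array weights, which called it (adjusted p = 0.036) as they did 2498 of all 13710 genes. Without 6 h replicate 2 it was 0.24.

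Fabp5, the epidermal fatty acid binding protein, is also made by keratinocytes and macrophages. Its level was 13.59, 13.46, 12.87 and 13.15 in 6 h replicates 1, 2, 3 and 5, and 13.28, 13.17, 13.11 and 13.37 in 24 h replicates 1 to 4, against 12.95, 13.36 and 13.47 in vehicle replicates 1, 3 and 4. The groups overlapped throughout, and the differences were 0.0056 ± 0.21 at 6 h and -0.030 ± 0.21 at 24 h (limma adjusted p = 0.99 and 0.98), with 95% intervals from -0.45 to 0.46 and from -0.48 to 0.42. The second Fabp5 probe set read 12.58, 12.16, 11.73 and 11.41 at 6 h and 11.89, 12.06, 11.72 and 12.17 at 24 h, against 11.56, 11.52 and 11.68 in vehicle. It lay above vehicle on every 24 h array, by 0.37 ± 0.25 (limma adjusted p = 0.71 over all probe sets tested), so the 2 probe sets differ in sign at 24 h. By main probe set, 5.09% of all genes lay wholly above vehicle at 24 h, a share that leaves out second probe sets. Without vehicle replicate 1 the main probe set differed by -0.15 at 6 h and -0.18 at 24 h.

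Far2 reduces fatty acyl-CoA to the fatty alcohols that enter wax esters. Its level was 10.51, 10.44, 9.66 and 9.84 in 6 h replicates 1, 2, 3 and 5, and 9.48, 9.80, 10.25 and 10.56 in 24 h replicates 1 to 4, against 9.70, 9.74 and 9.92 in vehicle replicates 1, 3 and 4. The treated arrays lay on both sides of vehicle at both times. Far2 averaged 10.11 ± 0.42 at 6 h and 10.02 ± 0.48 at 24 h, against 9.79 ± 0.12 in vehicle, with differences of 0.33 ± 0.29 and 0.24 ± 0.29 (limma adjusted p = 0.59 and 0.85). These were 0.20 at 6 h without 6 h replicate 1, 0.06 at 24 h without 24 h replicate 4, and -0.45 and -0.50 as deposited. The second Far2 probe set lay above vehicle on all 6 h arrays, with 8.93, 9.03, 8.62 and 9.05 at 6 h against 8.43, 8.59 and 8.35 in vehicle. By main probe set, 9.77% of all genes lay wholly above vehicle, a share that leaves out second probe sets. The second Far2 probe set differed by 0.45 ± 0.22 (limma adjusted p = 0.34). Its paralogue Far1 differed by 0.11 ± 0.18 at 6 h and 0.23 ± 0.18 at 24 h, uncalled (limma adjusted p = 0.79 and 0.75).

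Dgat2, which makes triglyceride from diacylglycerol and acyl-CoA, was furthest below vehicle of the 7 genes at both times and had the smallest SD of the 7 at 6 h. Its level was 10.67, 10.72, 10.59 and 10.55 in 6 h replicates 1, 2, 3 and 5, and 11.34, 10.11, 10.37 and 10.10 in 24 h replicates 1 to 4, against 10.88, 11.62 and 11.43 in vehicle replicates 1, 3 and 4. All 6 h arrays and 3 of 4 24 h arrays lay below all vehicle arrays, and 24 h replicate 1 lay within the vehicle range. Of all genes tested, 8.77% lay wholly below vehicle at 6 h and 6.02% at 24 h. Dgat2 averaged 10.64 ± 0.08 at 6 h and 10.48 ± 0.59 at 24 h, against 11.31 ± 0.38 in vehicle.

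The Dgat2 differences were -0.67 ± 0.29 at 6 h (unadjusted p = 0.042) and -0.83 ± 0.29 at 24 h (unadjusted p = 0.016), and limma called neither (adjusted p = 0.29 and 0.56). The second probe set read 8.03, 8.16, 8.57 and 6.87 at 6 h and 9.92, 7.53, 8.40 and 7.73 at 24 h, against 9.18, 9.91 and 9.89 in vehicle. It gave -1.75 ± 0.54 at 6 h and -1.26 ± 0.54 at 24 h (limma adjusted p = 0.20 and 0.60), again with every 6 h array below vehicle. Over the 28 alternatives run, both differences were below 0, from -1.75 to -0.45 at 6 h and from -1.51 to -0.68 at 24 h. These alternatives were not separate checks. A change of filter or threshold could not move a difference, and left these at -0.67 and -0.83. Others left out single arrays, some of them from neither group compared. Array weights called the 6 h difference (-0.82, adjusted p = 0.037), along with all the other genes counted above for Acsbg1, so this call is not particular to Dgat2. Without the arrays of low actin ratio, which left 6 h replicates 1 and 2 and 24 h replicates 1, 3 and 4, the Dgat2 differences were -0.61 and -0.71.

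Adipocytes also express Dgat2. Adipocyte markers lay below vehicle in 10 of 10 measured members at each time, with median differences of -1.09 at 6 h and -0.75 at 24 h, and 0 were called. The summed intensity of the 10 markers, none at 0 throughout, ran from 27134 to 32996 at 6 h and from 22507 to 39883 at 24 h, against 35705 to 42369 in vehicle. In 24 h replicate 1, where Dgat2 was within the vehicle range, the sum was 39883. In 24 h replicate 3 the sum was 37166, also within the vehicle range, while Dgat2 at 10.37 lay below every vehicle array. The part of adipocytes in the Dgat2 difference was not tested, and in whole skin fewer cells of a type and less RNA per cell cannot be told apart. Among the markers, Plin4, a lipid droplet coat gene, differed by -0.98 ± 0.20 at 6 h and -0.41 ± 0.20 at 24 h, and Aqp7, a glycerol channel gene, by -1.32 ± 0.43 and -0.88 ± 0.43, none called (limma adjusted p = 0.12, 0.65, 0.21 and 0.65). Macrophage markers lay below vehicle in 10 of 10 and fibroblast markers in 8 of 8 measured members at both times too. The summed intensity of the 10 macrophage markers was 10990 to 25984 at 6 h and 4059 to 27427 at 24 h, against 20811 to 39678 in vehicle.

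**Figure D3:**
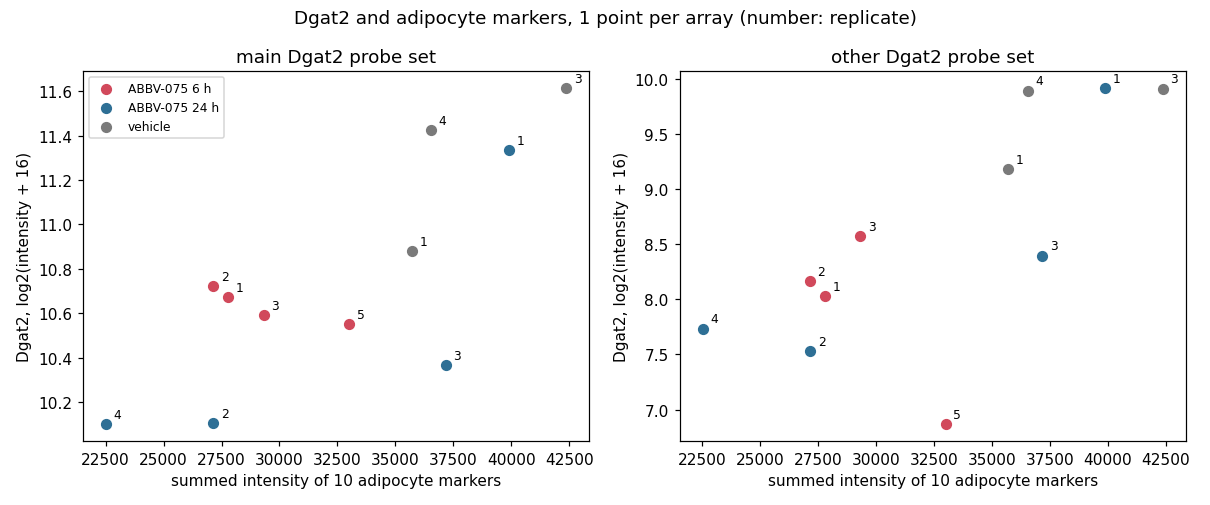
Log2(intensity + 16) of the main (left) and other (right) Dgat2 probe set (y axis) against the summed intensity of 10 adipocyte markers (x axis), 1 point per array, numbered by replicate and coloured by group. All 6 h arrays lie at or below 32996 on the x axis and below every vehicle array on the y axis. In 24 h replicate 1 the main probe set reads 11.34, within the vehicle range, and the other probe set 9.92, just above the highest vehicle array at 9.91.

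**Figure D4:**
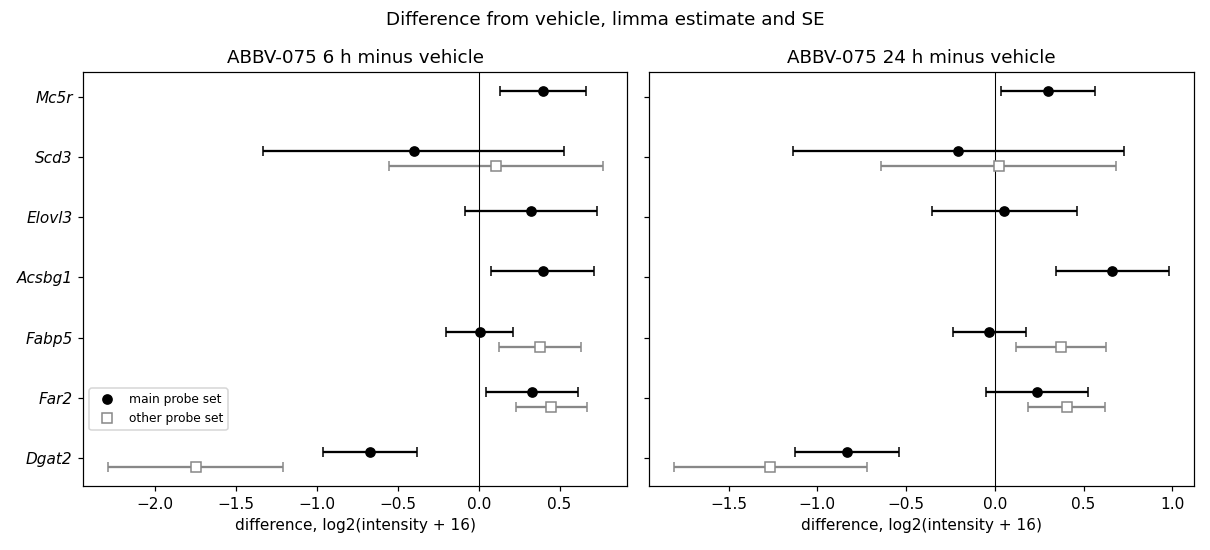
Difference from vehicle on the log2(intensity + 16) scale (x axis) for each of the 7 genes (y axis) at 6 h (left) and 24 h (right), as limma estimate and SE, with the main probe set filled and the other probe set open. Dgat2 lies below 0 with both probe sets at both times, at -0.67 and -1.75 at 6 h, and no difference shown was called.

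Some of the genes were high on the same arrays. In 6 h replicates 1 and 2, the same 5 genes, Scd3, Elovl3, Acsbg1, Fabp5 and Far2, each stood among their 3 highest of the 11 arrays. The share of all genes high on both arrays is not given here, so the pattern is not read as particular to these genes. In 6 h replicate 3, Scd3 and Fabp5 were at their lowest, and in 6 h replicate 5 Elovl3 was. In 24 h replicate 4, Mc5r, Acsbg1 and Far2 were at their highest and Dgat2 at its lowest. Krt79, a keratin of the sebaceous duct, had 12.56, 11.71, 11.24 and 10.74 in 6 h replicates 1, 2, 3 and 5, against 10.25, 10.71 and 11.33 in vehicle (difference 0.80 ± 0.42, limma adjusted p = 0.37). Keratinocyte markers followed the same arrays. The summed intensity of 8 basal keratinocyte markers was 23545 and 21659 in 6 h replicates 1 and 2 and 11897 and 10443 in replicates 3 and 5, against 7811 to 15657 in vehicle, and that of 11 suprabasal markers ran from 44507 to 59625 at 6 h, against 43248 to 50688 in vehicle. Within the 6 h group both sums were highest in replicates 1 and 2, as the same 5 genes were, and the part of keratinocytes in this was not tested. Mc5r differed, being lowest of the 6 h arrays in replicate 1 (5.34) and highest in replicate 3 (5.91). Dgat2 hardly varied at 6 h, from 10.55 to 10.72. The summed intensity of the 13 measured hair shaft markers, a sign of growing follicles, was 319 to 1723 at 6 h and 342 to 12022 at 24 h, against 452 to 9573 in vehicle, so that 1 array at 24 h and 1 in vehicle stood far above the rest.

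The genes with the smallest root-mean-square differences from Elovl3 were Nktr, Unc5b and Pip4k2c, at 0.18, 0.18 and 0.21. These were taken over the 11 arrays after each gene was centred on its vehicle mean, and they count the size of swings as well as their direction. The median over 13703 other genes was 0.68. Far2 was the closest of the measured sebaceous genes, at 0.36, and 203 other genes lay closer. Scd3, with wider swings, stood at 1.04, beyond the median gene, although it was highest in 6 h replicates 1 and 2, as Elovl3 was.

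Between 24 h and 6 h, 0 of the 7 genes were called and all 7 overlapped, where 0% of all genes were called and 5.46% did not overlap. Above 0 were 2 of the 7 genes and below it 5, against 47.4% and 52.6% of all genes, and 0 of the 7 had an unadjusted p under 0.05, against 9.27%. The differences, 24 h minus 6 h, ran from -0.27 ± 0.38 for Elovl3 to 0.27 ± 0.29 for Acsbg1 (limma adjusted p = 0.88 and 0.85), and that of Dgat2 was -0.16 ± 0.27 (adjusted p = 0.90).

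Other genes of the sebocyte and its lipid pathway were followed in 5 lists, none with a called member in either comparison with vehicle. Up to 3 genes per list are named for having its smallest p. Of 12 measured sebocyte regulators, 6 lay above vehicle and 6 below at each time. Pparg, the nuclear receptor that drives sebocyte and adipocyte differentiation, was 7.01, 6.75, 7.68 and 7.61 in 6 h replicates 1, 2, 3 and 5, and 7.91, 6.90, 7.38 and 5.81 in 24 h replicates 1 to 4, against 8.43, 8.57 and 7.98 in vehicle replicates 1, 3 and 4. Every treated array thus lay below every vehicle array, with differences of -1.06 ± 0.43 at 6 h and -1.33 ± 0.43 at 24 h that limma did not call (adjusted p = 0.27 and 0.53). The part of adipocytes in the Pparg differences was not tested. Nr1h3, the oxysterol receptor LXR-alpha, differed by -1.13 ± 0.29 at 6 h, wholly below vehicle, and by -0.80 ± 0.29 at 24 h with overlap (adjusted p = 0.15 and 0.58). Gata6, a transcription factor of the sebaceous duct in mice, differed by 0.68 ± 0.19 at 6 h, wholly above vehicle, and by 0.12 ± 0.19 at 24 h with overlap (adjusted p = 0.18 and 0.88). Nr1h3 and Gata6 were dim, with means of 5.10 and 6.41 at 6 h and of 6.23 and 5.73 in vehicle. In all, 2 of the 12 regulators lay wholly below vehicle and 1 wholly above it at 6 h, against 8.77% and 9.77% of all genes. At 24 h, 1 lay wholly below vehicle and 0 wholly above it, against 6.02% and 5.09%.

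Of 19 fatty acid synthesis, desaturation and elongation genes, 12 lay above vehicle at 6 h and 11 at 24 h, against the shares of all genes given above. Elovl4, the elongase of very long chains, was 12.32, 12.44, 12.12 and 11.98 in 6 h replicates 1, 2, 3 and 5, and 12.11, 12.30, 12.05 and 12.29 in 24 h replicates 1 to 4, against 11.66, 11.91 and 11.54 in vehicle replicates 1, 3 and 4. Every treated array lay above every vehicle array, by 0.51 ± 0.17 at 6 h and 0.49 ± 0.17 at 24 h, uncalled (limma adjusted p = 0.21 and 0.56). Hacd3, a dehydratase of the elongation cycle, differed by 0.64 ± 0.24 at 6 h and 0.31 ± 0.24 at 24 h (adjusted p = 0.25 and 0.75). Fads1, the delta-5 desaturase, differed by -0.62 ± 0.29 at 6 h and -0.29 ± 0.29 at 24 h (adjusted p = 0.32 and 0.82). At 6 h, 2 of the 19 genes lay wholly above vehicle and 2 wholly below it, against 9.77% and 8.77% of all genes. At 24 h, 1 lay wholly above vehicle and 0 wholly below it, against 5.09% and 6.02%.

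Of 15 fatty acid activation, transport and binding genes tested, 7 lay above vehicle at 6 h and 10 at 24 h. Fabp3, the fatty acid binding protein of muscle, differed by 0.89 ± 0.53 at 6 h with overlap (limma adjusted p = 0.43). At 24 h it differed by 1.83 ± 0.53 with no overlap (adjusted p = 0.53), where 5.09% of all genes lay wholly above vehicle. Skeletal muscle markers lay above vehicle in 2 of 8 members at 6 h and in 7 of 8 at 24 h. Their summed intensity was 46369 to 68335 at 6 h and 60676 to 82475 at 24 h, against 48182 to 75200 in vehicle. Their part in the Fabp3 differences was not tested. Acsl4, an acyl-CoA synthetase for arachidonate, differed by 0.60 ± 0.17 at 6 h and 0.37 ± 0.17 at 24 h (adjusted p = 0.18 and 0.65). Acot1, an acyl-CoA thioesterase, differed by 0.78 ± 0.33 at 6 h and 0.76 ± 0.33 at 24 h (adjusted p = 0.29 and 0.64). At 6 h, 2 of the 15 genes lay wholly above vehicle and 1 wholly below it, against 9.77% and 8.77% of all genes.

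Of 17 glycerolipid, wax and sterol ester genes tested, 12 lay below vehicle at 6 h and 10 at 24 h. Dgat1, the other enzyme that completes triglyceride, differed by -0.49 ± 0.25 at 6 h and 0.03 ± 0.25 at 24 h. Agpat2, which acylates lysophosphatidic acid, differed by -1.04 ± 0.46 at 6 h and -0.87 ± 0.46 at 24 h (limma adjusted p = 0.30 and 0.67). Lpin3, a phosphatidate phosphatase, differed by -1.25 ± 0.33 at 6 h and -0.30 ± 0.33 at 24 h (adjusted p = 0.16 and 0.83). Lpin3 was dim, at a mean of 4.59 at 6 h and 5.84 in vehicle, with the floor at 4.00. Agpat2 and Lpin3 were the 2 of 17 genes wholly below vehicle at 6 h, against 8.77% of all genes, and both overlapped vehicle at 24 h. Of 14 lipid droplet and secretion genes tested, 9 lay below vehicle at 6 h and 8 at 24 h. The lipase Lipe differed by -1.19 ± 0.43 at 6 h and -0.60 ± 0.43 at 24 h (limma adjusted p = 0.24 and 0.74), and it is also 1 of the 10 adipocyte markers, all of which lay below vehicle. The lipase Pnpla2 differed by -0.75 ± 0.42 at 6 h and -0.68 ± 0.42 at 24 h (adjusted p = 0.40 and 0.70). These were the 2 of 14 genes wholly below vehicle at 6 h, against 8.77% of all genes, and both overlapped vehicle at 24 h. The part of adipocytes in the Agpat2, Lipe and Pnpla2 differences was not tested. Muc1, a cell surface mucin, was at 0 on all arrays once values below 0 were set to 0. Mgst1, a glutathione transferase abundant in sebocytes, differed by 0.0048 ± 0.17 at 6 h and -0.19 ± 0.17 at 24 h (limma adjusted p = 0.99 and 0.79).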

How the data were processed

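RNA from each skin sample (200 ng) went through an Affymetrix 3' IVT Plus kit onto 1 of 11 arrays, per the labels' protocols. The authors deposited 1 table of 45101 linear probe set intensities per array, 12.9% to 16.6% of them below 0; for the software, background method and scaling, the sources used here give nothing. The number of arrays limits the precision.

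Intensities were quantile-normalized, set to at least 0 and taken as log2(intensity + 16). Of the probe sets, 34958 had 1 gene, 932 several and 9211 none here, and 34754 matched RefSeq through Entrez identifiers. The brightest probe set stood for a gene, and 13710 of 18194 genes lay above their array's 40th percentile on at least 3 arrays. Groups were compared in 1 fit over all arrays with limma 3.58.1 (lmFit and eBayes, two-sided) in R 4.3.3, checked on simulated data; figures used matplotlib 3.10.9. The sebaceous genes, lists and tests were chosen with earlier results of these data known. Named were the 9 genes, their relatives, up to 3 genes of smallest p per list, and the 3 genes closest to Elovl3; the same search for Awat2 could not be made.

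Replicate numbers were checked for pairing by the correlation of deviations from group means. It was 0.25, 0.13 and 0.21 for 24 h and vehicle, all over 0.1, and -0.06, -0.35 and 0.17 for 24 h and 6 h, and -0.12 and -0.07 for 6 h and vehicle. At most 3 intensities were identical between 2 arrays. Alternatives covered normalization, filter, pseudocount, probe set, array weights, variance trend, replicate block, arrays in the fit, actin ratio, threshold and each array left out.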

Additional observations from a re-analysis of the deposited data

How the results depend on the processing

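Of the 7 genes, 0 were called in each comparison under every alternative but one: array weights called Acsbg1 and Dgat2, 2 genes, at 6 h. Those weights called 2498 of all 13710 genes at 6 h. Over all genes, 0 were called in the 3 comparisons as reported. At 6 h this became 859 as deposited, 18 with no filter, 7 with the mean of probe sets, 2498 with array weights, 1 with the replicate block, 1 with only the 2 groups compared and 40 at a threshold of 0.10. At 24 h it became 6 as deposited, 1 with no filter, 59 with array weights, 2 with only the 2 groups compared and 1 at 0.10. For 24 h minus 6 h it became 1 once x_at and s_at probe sets were left out, 2 with the mean of probe sets, 423 with array weights, 3 with the actin ratio as covariate and 8 at 0.10. Leaving out 1 array gave 0 to 23 calls at 6 h, 0 to 1 at 24 h and 0 to 7 for 24 h minus 6 h. Signs turned as follows, and the cause was not tested. As deposited, 6 h differences were -0.43 (Acsbg1), -0.52 (Elovl3), -0.28 (Fabp5), -0.45 (Far2) and -0.035 (Mc5r), 24 h differences -0.079 (Acsbg1), -0.69 (Elovl3) and -0.50 (Far2), and 24 h minus 6 h 0.086 (Mc5r). At 24 h, median scaling gave -0.26 (Elovl3), 0.12 (Fabp5) and -0.065 (Far2), cyclic loess 0.15 (Fabp5) and the mean of probe sets 0.17 (Fabp5). Array weights gave 0.50 (Scd3, 6 h) and -0.15 (Elovl3, 24 h). The actin covariate gave 0.60 (Scd3, 6 h), 0.23 (Scd3, 24 h) and 0.030 (Fabp5, 24 h). Without arrays of low actin ratio, which were those lowest in Scd3, Scd3 was 1.39 at 6 h and 0.077 at 24 h. The other probe set, an alternative chosen after seeing the data, gave 0.10 and 0.021 for Scd3 and 0.37 for Fabp5 at 24 h. For 24 h minus 6 h, cyclic loess gave 0.060 (Fabp5), the mean of probe sets 0.16 (Dgat2), array weights -0.20 (Acsbg1), 0.13 (Dgat2) and -0.51 (Scd3), the actin covariate -0.37 (Scd3), the arrays of low ratio left out 0.16 (Mc5r) and -1.31 (Scd3), and the other probe set 0.49 (Dgat2) and -0.084 (Scd3). Leaving out 1 array, differences at 6 h ran from -0.019 to 0.64 (Elovl3), -0.15 to 0.14 (Fabp5) and -1.09 to 0.53 (Scd3), at 24 h from -0.18 to 0.26 (Elovl3), -0.18 to 0.076 (Fabp5) and -0.44 to 0.077 (Scd3), and for 24 h minus 6 h from -0.034 to 0.42 (Acsbg1), -0.59 to 0.071 (Elovl3), -0.17 to 0.072 (Fabp5), -0.27 to 0.093 (Far2), -0.24 to 0.038 (Mc5r) and -0.73 to 0.88 (Scd3). With the replicate block, Dgat2 differed by -0.63 at 6 h and -0.78 at 24 h and Elovl3 by 0.83 at 6 h, 24 h minus 6 h was -0.069 for Acsbg1 and -0.10 for Scd3, and no call among the 7 genes changed.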
